A study of Mus musculus with 4 samples.

Results

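The mouse major histocompatibility complex (MHC, called H2 in this species) is the gene-dense stretch of chromosome 17 that governs antigen presentation. Its H3K27me3 peaks were taken as all peaks of the 2 deposited lists that overlapped chromosome 17 from 33.8 to 37.6 Mb (build mm9). These were 160 of 20024 peaks in progenitors of the bone marrow, called adult, and 195 of 31847 in those of the fetal liver, called fetal, or 355 of 51871 in all. Membership was decided by position alone.

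H3K27me3, trimethylation of histone H3 at lysine 27, was mapped in lineage-negative C57BL/6 cells, from which cells bearing surface markers of T, B, NK, erythroid, granulocytic, macrophage and dendritic lineages had been removed. The adult group came from the long-bone marrow of mice aged 8 weeks and the fetal group from livers at embryonic day 14.5. Both groups carried a lentivirus for NOTCH1ΔE (N1dE), were cultured for 3 days with IL-3, IL-6, FLT3 ligand and SCF, and were sorted for GFP before native chromatin immunoprecipitation. No group without NOTCH1ΔE was among the 4 samples, so every value belongs to cells that carried this transgene. Each cell type gave 1 immunoprecipitation peak list, called, going by the list's name, on merged data against its input, so that no spread between replicates can be had and the cell types could not be tested against each other. The comparison asks how the mark over this complex differs between progenitors of fetal and adult origin. Age and organ differ together between the groups and cannot be told apart. The read depth is unknown, and 95% Wilson intervals cover counting error over peaks only, although neighbouring peaks are not independent.

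The H3K27me3 mark is laid down by Polycomb repressive complex 2, and broad stretches of it lie over genes held silent. Class I molecules show peptides from inside the cell to CD8 T cells and are made by most cells, whereas class II molecules show peptides taken up from outside to CD4 T cells and are made mainly by B cells, dendritic cells and macrophages. The class III stretch between them holds genes of other kinds, such as complement components and the tumour necrosis factor family. The distal class I genes, named T and M, include many that are expressed in few tissues.

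In the RefSeq table of build GRCm38, where 67 of 67 genes listed for the complex were found, the order along the chromosome begins with H2-K1, a classical class I gene. It continues with the antigen-processing genes Psmb9, Tap1, Psmb8 and Tap2, the class II genes H2-Ob, H2-Ab1, H2-Aa, H2-Eb1 and H2-Eb2, and the butyrophilin-like genes up to Notch4. Next come Pbx2, Tnxb, the complement genes C4b, Cfb and C2, the heat shock genes Hspa1b and Hspa1a, and Ltb, Tnf and Lta. H2-D1 and the H2-Q genes precede Pou5f1, the gene of the pluripotency factor OCT4, and Ddr1. The H2-T genes and then the H2-M10 and H2-M9 genes with members of the Trim family follow, and Mog, Gabbr1, H2-M3 and H2-M2 are among the last. The peaks are on mm9, a different build, so this order is background and no gene was placed on a peak. The complex was divided by position into a class II side (33.8 to 34.6 Mb), class III (34.6 to 35.4 Mb), a class I D and Q side (35.4 to 36.1 Mb) and a T and M side (36.1 to 37.6 Mb), and these names were not checked against genes.

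Among windows of its own length, the MHC was the most densely marked stretch of chromosome 17 in both populations. Adult peaks covered 357.9 kb, or 9.42% of its 3.8 Mb, and fetal peaks covered 596.9 kb, or 15.7%. On the rest of chromosome 17 the shares were 1.46% and 2.32%. The covered share of the MHC was therefore 6.45 times that of the rest of the chromosome in adult cells and 6.77 times in fetal cells. With 3.99% of the length of the chromosome, the complex held 21.1% of its adult and 21.9% of its fetal coverage. Among 24 adjoining windows of 3.8 Mb on chromosome 17 it ranked 1 in both lists, ahead of the window from 22.4 to 26.2 Mb, where adult peaks covered 219.9 kb and fetal peaks 355.9 kb. Of the 10 fullest 100 kb bins of the chromosome, 5 lay in the MHC in either list. Against the rest of all autosomes the covered share was 5.89 times as high in adult cells and 6.48 times in fetal cells.

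Fetal peaks covered more of the MHC than adult peaks, by a factor close to that of the rest of the chromosome. The ratio of covered length, fetal cells over adult cells, was 1.67 in the MHC and 1.59 on the rest of chromosome 17. By this ratio the MHC ranked 18 of the 24 windows, counted from the lowest, and the median window had 1.49. The ratio of peak numbers was lower, at 1.22 (0.989 to 1.50), than on the rest of the chromosome, where it was 1.65 (1.50 to 1.81). The MHC peaks were 3.06 kb wide on average in fetal cells and 2.24 kb in adult cells, while those of the rest of the chromosome averaged 1.87 and 1.94 kb. Bases in both lists amounted to 300.8 kb, which was 84.0% of the adult and 50.4% of the fetal coverage, while 57.2 kb lay in adult peaks alone and 296.1 kb in fetal peaks alone.

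Wide peaks were frequent in the MHC of fetal progenitors. Among fetal peaks, 16 of 195 (8.21%) reached 10 kb, against a background of 2.12% of all fetal peaks. These 16 peaks summed to 274.4 kb, or 46.0% of the summed width of the fetal peaks of the complex, compared with 15.4% in peaks of this width on the rest of chromosome 17. In adult cells 5 of 160 peaks (3.13%) reached 10 kb, against a background of 2.27%. All 16 wide fetal peaks overlapped adult peaks, as did 674 of 676 over all chromosomes. The 16 met a median of 3 and at most 7 adult peaks each, and these covered a median of 61.7% of the width (range 9.12 to 100%). Over all chromosomes the wide fetal peaks overlapped a median of 2 adult peaks, which covered a median of 82.2%. Seen from the other list, 51 of the 160 adult peaks (31.9%) lay on a fetal peak of at least 10 kb, against a background of 7.03%. Where wide fetal peaks are frequent, adult peaks meet them more easily, and no level for that was set. The 5 wide adult peaks each met 1 fetal peak, which covered between 82.3% and 100% of them. Over all chromosomes 452 of 454 wide adult peaks met a fetal peak.

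The mark was far from even along the complex. It was concentrated in 10 of the 38 bins of 100 kb, those with at least 20 kb in either list, which held 82.5% of the adult and 82.6% of the fetal coverage. Another 6 bins held no peak base in either list, and 32 of the 38 held one. Over all chromosomes only 34.5% of bins held a peak base, so empty bins were scarcer in the MHC. Within the complex, the longest stretch free of peaks spanned 215.9 kb, from 35868270 to 36084206 on the class I D and Q side. A stretch of 199.5 kb on the T and M side, from 37400511, reached the border of the complex, where its length was cut. Others spanned 197.7 kb across the end of class III and the start of the D and Q side (35214962 to 35412655) and 181.5 kb on the class II side (34214238 to 34395731). Both lists placed the mark in largely the same bins, with a Spearman correlation of 0.88 over the 38 bins, the 6 empty ones included. The bins share libraries and are neighbours on 1 chromosome, and no background was computed for this correlation. Of 32 bins with a peak base, 26 were covered more in fetal cells, a share of 81.3%, against a background of 74.7% of such bins over all chromosomes, and 6 (18.8%) more in adult cells, against a background of 25.2%.

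**Figure D1:**
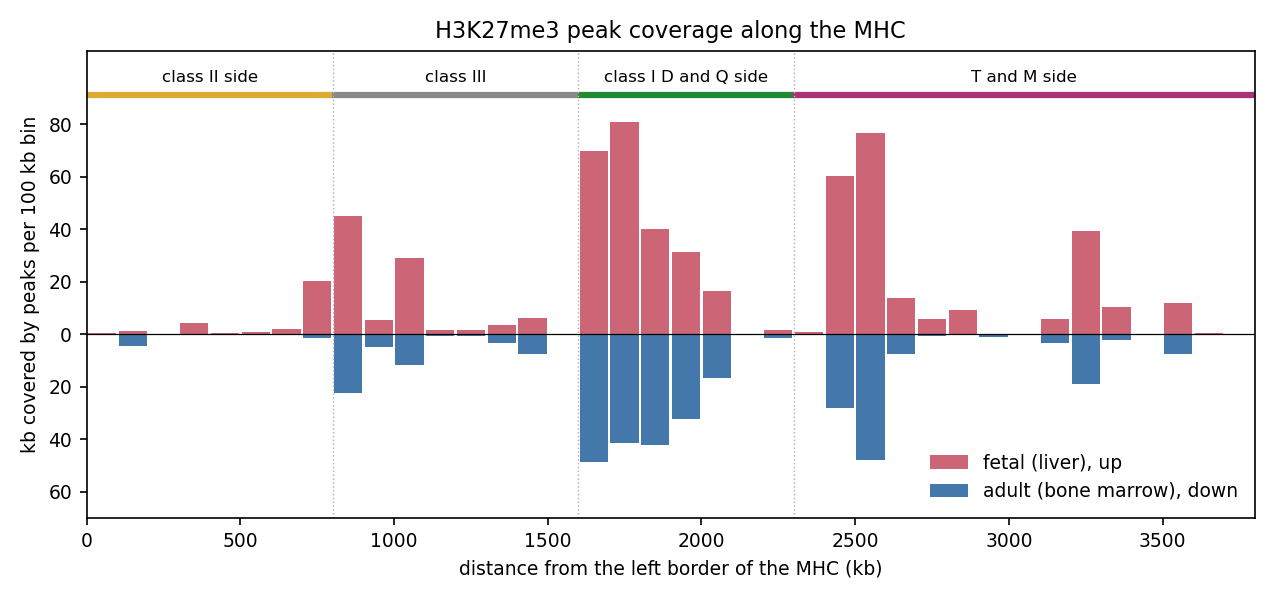
Kilobases covered by H3K27me3 peaks in each 100 kb bin (vertical axis, fetal cells upwards and adult cells downwards) against the distance from the left border of the MHC in kb (horizontal axis), with the 4 parts marked above. The mark gathers in blocks that both lists share, and the bin fullest in fetal cells holds 81.0 kb of fetal and 41.4 kb of adult peaks.

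In the full lists, the class I D and Q side was the most heavily covered part in both populations. Adult peaks covered 182.8 kb of its 0.7 Mb, or 26.1%, and fetal peaks 240.5 kb, or 34.4%, which is 17.9 and 14.8 times the share of the rest of chromosome 17. Many class I genes are near-identical copies, and what the placing of reads that match several copies did to the coverage of this side and of the T and M side was not tested. It carried 51.1% of the adult coverage of the whole complex and 40.3% of the fetal coverage. In the full lists it was the only one of the 4 parts with more adult than fetal peaks, 68 against 50, with a ratio of 0.735 (0.511 to 1.06), although the ratio of covered length was 1.32. With the fetal list reduced to the adult number of peaks, class III (27 adult, 26 fetal) and the T and M side (59 and 47) had more adult peaks too. The median fetal peak was 1935.5 bp wide and the median adult peak 1405 bp, and 15 of the 50 fetal peaks (30.0%) reached 5 kb, against a background of 8.02%. In adult cells 10 of the 68 (14.7%) did so, against a background of 9.54%.

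**Figure D2:**
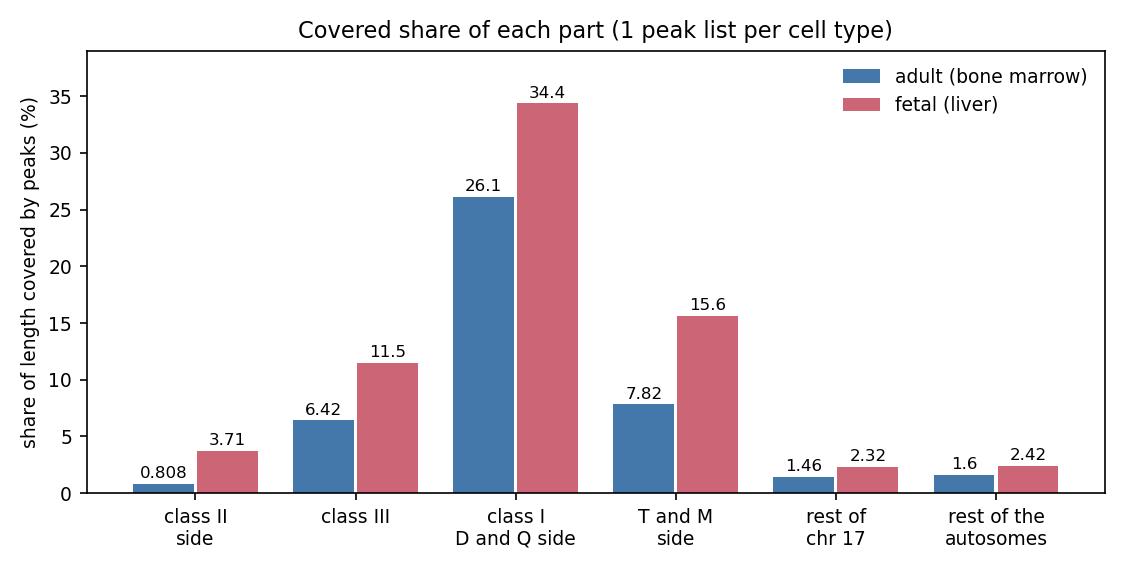
Share of the length covered by peaks, in percent (vertical axis), for the 4 parts of the MHC, the rest of chromosome 17 and the rest of the autosomes (horizontal axis), with 1 bar per cell type and no error bars because there was 1 list each. The class I D and Q side reaches 26.1% and 34.4%, while the class II side in adult cells, at 0.808%, lies under the 1.46% of the rest of the chromosome.

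Within the D and Q side nearly all of the fetal excess lay in the first 2 bins. From 35.4 to 35.5 Mb adult peaks covered 48.7 kb and fetal peaks 70.0 kb. From 35.5 to 35.6 Mb they covered 41.4 kb and 81.0 kb, the largest difference between the lists in any bin of the complex, at 39.6 kb. In the next bins the order was slightly turned. Coverage was 42.4 kb in adult cells and 40.3 kb in fetal cells from 35.6 to 35.7 Mb, and 32.3 kb and 31.1 kb from 35.7 to 35.8 Mb. The bases in these last bins were only partly the same, with 32.9 kb and 20.6 kb, respectively, in both lists. Between 35.7 and 35.8 Mb the adult list held 20 peaks and the fetal list 10.

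The widest region of the D and Q side, formed by merging all peaks with gaps of up to 3 kb whichever list they came from, ran from 35513091 to 35613675, over 100.6 kb. Its 7 fetal peaks filled 91.2% of it and its 13 adult peaks 53.4%. The fetal list held its widest MHC peak here, of 30.2 kb (35553257 to 35583482), with a fold enrichment over input of 2.095, the value that the authors' caller reported for the peak. Under this single peak lay 7 separate adult peaks, which covered 42.8% of it and had fold enrichments from 1.62 to 3.02. At the left end the fetal peaks began first, and the first adult peak, only 224 bp wide, followed 12.1 kb later. The neighbouring region from 35442422 to 35499047, of 56.6 kb, was filled to 88.2% by fetal and 67.7% by adult peaks. In all, 17 of the 18 regions of the D and Q side (94.4%) held peaks of both lists, against a background of 41.6% of all regions. None of the 18 was marked in fetal cells only, which allows a share of up to 16.7% with 3 regions taken as the bound for a count of 0. A shared region can hold peaks that do not overlap. On this side 10 of the 50 fetal and 15 of the 68 adult peaks overlapped no peak of the other list. Merging over gaps joins peaks more easily in a densely covered stretch, and no level for that was set.

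The T and M side held the largest absolute fetal excess and the highest adult scores. Fetal peaks covered 234.6 kb of its 1.5 Mb (15.6%) and adult peaks 117.3 kb (7.82%), a ratio of 2.00. The difference of 117.3 kb was 49.1% of that over the whole complex. This side is also the longest part, with 1.5 of the 3.8 Mb. Per length, the fetal excess was slightly larger on the D and Q side, with 26.1% of the length covered in adult and 34.4% in fetal cells. Bases in common were 91.5% of the adult but 45.8% of the fetal coverage. Most of the coverage stood in 3 bins. From 36.2 to 36.3 Mb adult peaks covered 28.2 kb and fetal peaks 60.1 kb. The adjacent bin held 47.9 kb and 76.8 kb, and the bin from 37 to 37.1 Mb held 18.9 kb and 39.5 kb.

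The widest marked region of the MHC lay across the first of these bins and the second, from 36262471 to 36381756, over 119.3 kb. Fetal peaks filled 88.5% of it with 11 peaks, and adult peaks 54.0% with 20. The widest adult peak of the complex (36291302 to 36310177, 18.9 kb, fold enrichment 2.51) was wholly inside a fetal peak of 23.7 kb with a fold enrichment of 2.23. Both lists were thus dense in its centre. The outer parts differed, as the first adult peak began 15.4 kb after the first fetal peak and the last ended 5.71 kb before the end of the region.

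A second region of this side, from 37024135 to 37060795 over 36.7 kb, was filled to 55.8% by 10 fetal peaks and to 13.2% by 8 adult peaks. The widest of these adult peaks was 1.49 kb. Their fold enrichments were nevertheless high, from 2.02 to 4.57, while those of the fetal peaks ran from 1.41 to 2.45. Covered length and peak score thus differed in opposite directions between the lists at this place.

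**Figure D3:**
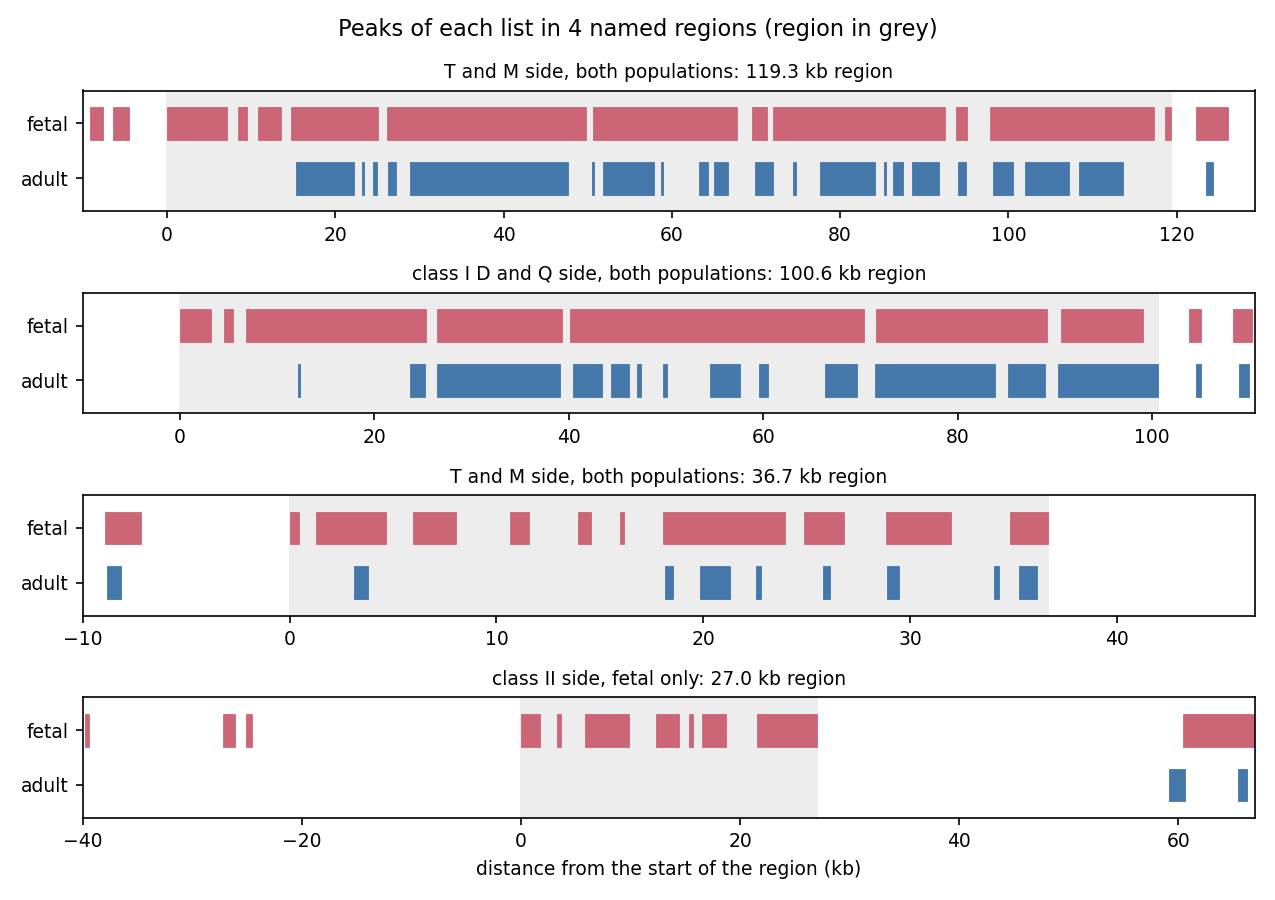
Peaks of each list drawn as blocks against the distance in kb from the start of the region (horizontal axis), for 3 regions marked in both populations and 1 marked in fetal cells only, with the region itself in grey. Long fetal blocks face rows of shorter adult blocks in the regions of 119.3 and 100.6 kb, and the region of the class II side holds 7 fetal blocks and no adult block.

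Adult peaks of the T and M side stood high within their own list, and fetal peaks of the same side did not. The median fold enrichment of the 59 adult peaks was 2.54 (interquartile range 2.03 to 3.01), at a median percentile of 78.6 of the whole adult list. That of the 83 fetal peaks was 1.87 (1.68 to 2.05), at a median percentile of 43.4 of its list. A −log10 q of at least 2 was reached by 35 of the 59 adult peaks (59.3%), against a background of 26.5%, and by 5 of the 83 fetal peaks (6.02%), against a background of 15.2%. Of the 21 adult peaks of the MHC with a fold enrichment of at least 3 (13.1%, against a background of 8.82%), 16 were on the T and M side and 5 on the D and Q side. In fetal cells 3 MHC peaks reached this fold (1.54%, against a background of 4.54%).

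The 3 adult peaks of highest fold in the MHC were all on the T and M side. The first, from 36321163 to 36321379, was 217 bp wide with a 5.94-fold enrichment at a −log10 q of 9.49, and it lay inside a fetal peak with a fold enrichment of 2.34. The others, at 37046706 to 37046937 and 37053005 to 37053594, had folds of 4.57 and 4.49 inside fetal peaks of 2.14 and 1.58. All 3 were therefore marked in both lists, with a short peak in adult cells and a wider peak in fetal cells. Over the 21 such adult peaks the median width was 952 bp, and 16 of them (76.2%) overlapped a fetal peak. Over all chromosomes the adult peaks of this fold had a median width of 707 bp, and 56.6% of them overlapped a fetal peak. A fold averaged over a wide peak is lower than its local maximum, and whether peak width sets the difference in fold was not tested.

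Among fetal peaks, 2 of the 3 of highest fold lay on the D and Q side. The first and the second were neighbours there, from 35848902 to 35850012 with a fold enrichment of 4.43 and from 35847119 to 35847756 with 3.88. An adult peak with a fold of 1.87 covered 100% of the first, and another covered 12.2% of the second. The third, from 36356272 to 36357592 on the T and M side, had a fold of 3.10 and met an adult peak of 2.91.

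**Figure D4:**
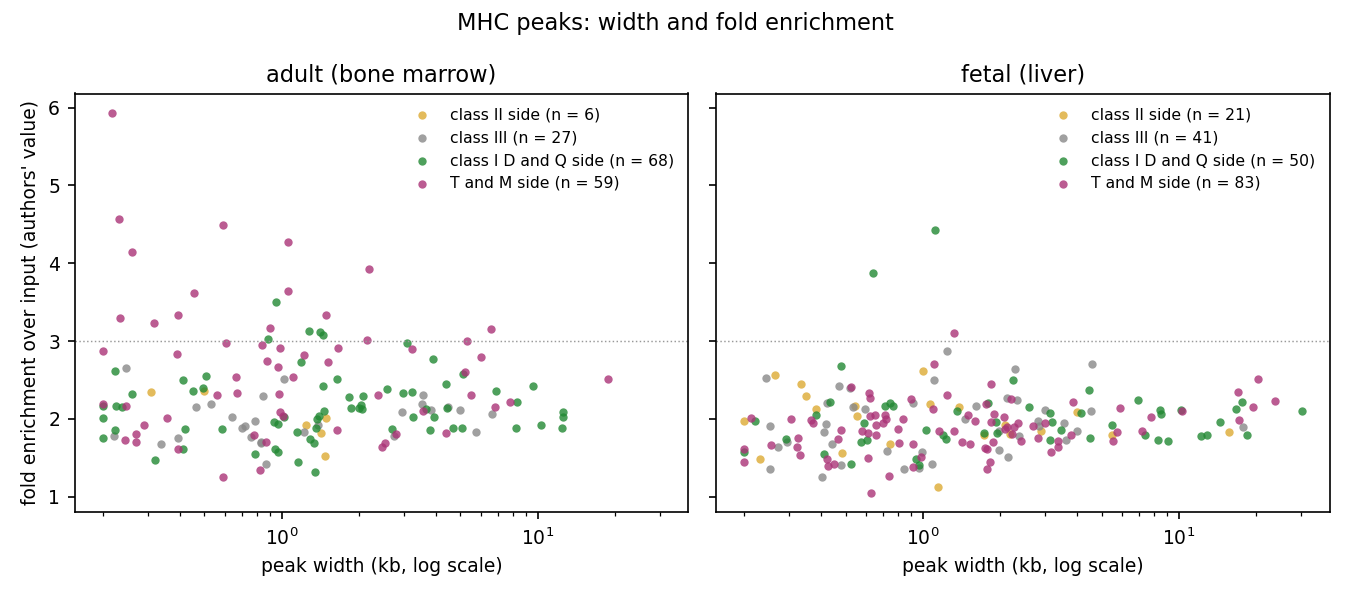
The authors' fold enrichment over input (vertical axis), against peak width in kb on a log scale (horizontal axis) for each MHC peak, in adult cells (left) and fetal cells (right), coloured by part. The dotted line marks a fold of 3, which 21 adult and 3 fetal peaks reached, and the fetal peak that crosses the border between the class II side and class III is counted with the class II side.

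The class II side was almost bare in adult cells and held 21 peaks in fetal cells. Adult peaks covered 6.46 kb of its 0.8 Mb, or 0.808%, less than the 1.46% of the rest of chromosome 17. Fetal peaks covered 29.7 kb, or 3.71%, which is above the 2.32% of the rest of the chromosome. The ratio of covered length was 4.59 and that of peak numbers, 21 against 6, was 3.50 (1.45 to 8.43), the highest of the 4 parts in both measures for the full lists. The ratio of covered length fell to 2.56 with the fetal list reduced to the adult number of peaks and to 1.56 at equal covered length, beside 1.55 on the T and M side, and at a −log10 q of 2 or more it was 0.857, beside 2.92 in class III. Only 0.483 kb lay in peaks of both lists. Of its 14 joined regions, 9 (64.3%) were marked in fetal cells only, against a background of 45.4%, and 3 (21.4%) in adult cells only, against a background of 13.0%.

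The 6 adult peaks of the class II side were between 308 and 1496 bp wide, and 4 of them stood at its outer end, from 33928604 to 33950953. The bin from 33.9 to 34 Mb accordingly held 4.48 kb of adult and 1.38 kb of fetal peaks, the largest adult excess in any bin of the complex, at 3.10 kb. Of the remaining peaks, 1 of 498 bp lay at 34176070 to 34176567 and 1 of 1485 bp at the border to class III. Between these last peaks lay 419.5 kb without an adult call, in which fetal cells had 15 peaks over 20.9 kb.

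The fetal coverage of the class II side was gathered at its inner end, from 34.5 to 34.6 Mb, with 20.4 kb against 1.49 kb in adult cells. Most of this belonged to a region from 34536953 to 34563928 without any adult peak, where 7 fetal peaks filled 60.1% of 26.98 kb. The widest, of 5465 bp at the right end (34558464 to 34563928), had an enrichment of 1.79-fold at a −log10 q of 0.874. The next, of 4013 bp (34542802 to 34546814), had 2.09 and 1.46. The fold enrichments of all 7 ran from 1.79 to 2.45 and the −log10 q from 0.874 to 1.46, all of them under the −log10 q of 2 that 15.2% of all fetal peaks reached. The highest fold enrichments on the class II side belonged to a pair of short peaks further out, of 1002 bp (34417633 to 34418634, fold enrichment 2.62) and 264 bp (34419737 to 34420000, 2.56), also without an adult peak.

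The border between the class II side and class III was marked in both populations. A shared region from 34596095 to 34640699, of 44.6 kb, held 10 peaks of each list, which filled 71.1% of it in fetal cells and 42.7% in adult cells. A fetal peak of 15.7 kb (34597405 to 34613066) crossed the border at 34.6 Mb and is counted in both parts. Most of this region fell into the bin from 34.6 to 34.7 Mb, with 44.9 kb of fetal and 22.4 kb of adult peaks.

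In class III the mark was patchy and more extensive in fetal cells. Adult peaks covered 51.3 kb of its 0.8 Mb (6.42%) and fetal peaks 92.1 kb (11.5%), a ratio of 1.79, with 27 and 42 peaks. The bins from 34.6 to 34.7 Mb, given above, and from 34.8 to 34.9 Mb, with 11.6 kb in adult cells and 28.9 kb in fetal cells, held most of it. From 35.2 to 35.3 Mb the order was the opposite, with 7.63 kb in adult cells and 6.09 kb in fetal cells. A −log10 q of at least 2 was reached by 7 of the 42 fetal peaks (16.7%) and by 1 of the 27 adult peaks (3.70%). The backgrounds are 15.2% and 26.5%, so that the fetal share was near its background and the adult share under it. The median −log10 q was 1.15 in fetal cells and 1.12 in adult cells and the median fold enrichment 1.91 and 1.97.

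Over the whole complex 129 of 160 adult peaks (80.6%, 73.8 to 86.0%) overlapped a fetal peak by at least 1 bp, against a background of 68.0% of all adult peaks. In fetal cells 92 of 195 (47.2%, 40.3 to 54.2%) overlapped an adult peak, against a background of 39.8%. By part, the share of fetal peaks with an overlap was 80.0% on the D and Q side, 47.6% in class III, 37.3% on the T and M side and 9.52% on the class II side. A densely covered stretch is more easily hit, and no level for that was set. Peaks without an overlap were short, with a median of 799 bp in fetal cells and 779 bp in adult cells, compared with 2818 and 1394 bp for those with one. The rest of chromosome 17 showed the same order, with 703 and 594 bp compared with 2150 and 1395.5 bp. With overlap counted from 1 bp, a wide peak is more easily hit than a short one, and no level for that was set either.

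Joined within 3 kb, the MHC peaks formed 92 regions. Both lists marked 45 of them (48.9%), against a background of 41.6%. Fetal cells alone marked 39 (42.4%, against 45.4%) and adult cells alone 8 (8.70%, against 13.0%). This balance turned, to 19 fetal and 22 adult, with the fetal list reduced to as many peaks as the adult list, and to 10 and 34 at a −log10 q of 2 or more. Within 36 of the 45 shared regions (80.0%) the fetal list covered more bases, against a background of 69.1%. The shared regions held 97.9% of the adult and 88.5% of the fetal coverage of the complex, against a background of 94.0% and 82.7%. The 8 regions of adult cells alone were each a single short domain of at most 1.50 kb. The most prominent by score was on the T and M side, from 36733332 to 36734393, where a peak of 1062 bp had an enrichment of 4.27-fold at a −log10 q of 5.30, and the closest fetal peak was 57.7 kb away. After the class II region, the widest regions of fetal cells alone were on the T and M side from 36645751 to 36656157, with 4 peaks over 6.22 kb and the closest adult peak 77.2 kb away, and in class III from 34867718 to 34874848, with 3 peaks over 3.18 kb.

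Among the 22 MHC bins with at least 2 kb in either list, 9 (40.9%) were covered at least 2-fold more in fetal cells, against a background of 35.1% over all chromosomes. A 2-fold adult excess was found in 1 (4.55%), against a background of 6.68%. These shares are near the background, and with the fetal list reduced to the adult number of peaks they turned to 2 bins with a fetal and 4 with an adult excess of 19 tested. The 9 bins were 2 on the class II side, 2 in class III and 5 on the T and M side. The D and Q side had none, although its bin from 35.5 to 35.6 Mb came close with a ratio of 1.96.

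The direction of the comparison depended on the score of the peaks counted. Restricted to a −log10 q of 2 or more, the MHC held 58 in adult cells (36.3%, against a background of 26.5%) and 18 in fetal cells (9.23%, against a background of 15.2%), over 129.1 kb and 45.2 kb. The ratio of covered length then fell to 0.351, compared with 0.692 for the whole lists under the same cut. The turn was on the D and Q side, with 55.5 kb in adult cells and 8.96 kb in fetal cells, and on the T and M side, with 69.6 kb and 25.6 kb. The class II side kept 1 peak of each list. Class III kept its direction, with 3.57 kb and 10.4 kb. When the fetal list was instead reduced by rank to its first 20024 peaks by −log10 p, the ratio in the MHC was 1.26, with 2.56 on the class II side, 1.43 in class III, 0.963 on the D and Q side and 1.57 on the T and M side. Neither depth is known, and whether scores compare across the lists was not tested.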

How the data were processed

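H3K27me3 was measured by native chromatin immunoprecipitation with sequencing, with 1 immunoprecipitation and 1 input sample per cell type, grouped by their titles. The inputs were used only within the authors' peak calls. The build was mm9 and the tools were MACS2 2.1.0, Picard and BWA 0.5.7, per the submitters' processing notes. Settings, read depth, what was merged and the placing of reads that match several class I copies were not given in the sources used here. Per peak, the deposited lists give the authors' fold enrichment over input (a ratio), −log10 p and −log10 q, and a score that was not used. Fold and significance served to describe, rank and cut peaks.

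Covered bases, overlaps (from 1 bp), regions (all peaks merged over gaps of up to 3 kb) and 100 kb bins were computed with pandas 2.3.3 and numpy 2.4.6 in Python 3.11.15. Overlaps were checked against bedtools 2.31.1, and the code was tested on simulated data, with 0 of 20 comparisons unequal over 2273 regions. Coverage was clipped at the borders, while a peak across a border counts on both sides. Wilson intervals came from scipy 1.17.1, figures from matplotlib 3.10.9 and chromosome lengths, unsequenced ends included, from GenomeInfoDb 1.38.1. Intervals around ratios of peak numbers come from the Wilson interval of the fetal liver share of peaks. A percentage given as background covers all chromosomes.

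Named were the 5 widest regions of each class, or those of them described, the 3 peaks of highest fold per list, bins with at least 20 kb in either list and the bins with the largest differences. The widest peaks, the peaks of the class II side, the peak-free gaps and the 3.8 Mb windows were added after their values were seen. The members, parts and lists were chosen with earlier results of these data known.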

Additional observations from a re-analysis of the deposited data

How the results depend on the processing

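With 1 list per cell type there is no replicate to leave out, and no paired analysis was possible because there are no replicates. Read depth is unknown and limits every comparison of list length. Of 76 alternative values, 44 differed from the reported one by less than its interval or by under 1.5 times, 20 moved further and 12 turned a ratio across 1. The cause was not tested.

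With only peaks whose −log10 q reached 2, the ratio of covered length in the MHC was 0.351, that of peak numbers 0.310, and the MHC ratio over that of the rest of chromosome 17 was 0.464. By part it was 0.857 on the class II side, 2.92 in class III, 0.161 on the D and Q side and 0.367 on the T and M side. The adult covered share rose to 11.4 times that of the rest of the chromosome. Overlapping peaks were then 13.8% of adult and 27.8% of fetal peaks, with 10 fetal-only and 34 adult-only regions. At a fold enrichment of at least 3 the ratios of covered length and peak number were 0.104 and 0.143. With the fetal list cut to the number of adult peaks, the ratio of peak numbers was 0.731, that of covered length 2.56 on the class II side and 0.963 on the D and Q side, the overlap of adult peaks 65.0%, the regions 19 and 22, and the bins at least 2-fold apart 6 (2 with more in fetal cells, 4 in adult cells), against 10 as reported. Cut to the adult length, the ratio of peak numbers was 0.688, and covered length, by part and chosen after seeing the data, 1.56 on the class II side, 1.17 in class III and 0.944 on the D and Q side. Requiring 50% of a peak covered gave 69.4% and 28.7%. Regions joined where they touch numbered 103 for fetal cells only and 31 for adult cells only, and those joined within 10 kb 21 and 4. Bins of 50 kb at least 2-fold apart numbered 17.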
